A study of Mus musculus with 6 samples.

Results

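The let-7 family guide strands are the 9 mouse miRNAs mmu-let-7a-5p, mmu-let-7b-5p, mmu-let-7c-5p, mmu-let-7d-5p, mmu-let-7e-5p, mmu-let-7f-5p, mmu-let-7g-5p, mmu-let-7i-5p and mmu-miR-98-5p; the species prefix mmu is left out from here on. They were chosen by name and not by a measured value, though with earlier results of these data known. All 9 were on the array, out of 1247 mouse miRNAs. They were measured in 3T3-L1 adipocytes, fat cells that a mouse fibroblast line forms under adipogenic culture. All 6 samples were brought to confluence, induced with isobutyl-methylxanthine, dexamethasone, insulin and rosiglitazone in fetal bovine serum, then kept in insulin and finally in serum alone, and stand for day 8 of differentiation. The 4 control samples received no cytokine. The 2 IL-6 samples received recombinant interleukin-6 at 1 ng/ml from the induction onward, with daily renewal. Each sample was hybridised to 1 single-colour Agilent miRNA array, and the comparison asks which of the family's guide strands differed between IL-6 and control. Whether the samples of a group were grown as separate cultures is not given in the labels. The p-values therefore speak only of the spread among these 6 samples, part or all of which may be technical, and with so few arrays the precision is limited.

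The let-7 miRNAs were first known as timers of development, and they rise as many cell types leave the proliferating state. A guide strand is the arm of the hairpin that Argonaute keeps, and bases 2 to 8 of it, the seed, pair with target mRNAs. Let-7 targets include Hmga2, Lin28, Igf1r and, in human cells, IL6 itself, and the RNA-binding protein Lin28 in turn blocks the processing of let-7 precursors. In 3T3-L1 cells let-7 is known for repressing Hmga2 as adipogenesis proceeds.

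The 9 mature sequences, taken from RefSeq with the GRCm38.p6 build, are shown because the members differ by few bases and the measurement has to tell them apart. Capitals mark the seed, which is the same in all 9.
let-7a-5p: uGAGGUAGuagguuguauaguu
let-7b-5p: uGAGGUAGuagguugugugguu
let-7c-5p: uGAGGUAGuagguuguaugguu
let-7d-5p: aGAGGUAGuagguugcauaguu
let-7e-5p: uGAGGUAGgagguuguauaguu
let-7f-5p: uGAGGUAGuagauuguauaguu
let-7g-5p: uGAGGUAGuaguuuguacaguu
let-7i-5p: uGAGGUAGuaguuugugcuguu
miR-98-5p: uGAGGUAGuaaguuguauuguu

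All 9 guides are 22 bases long. Counted from the 5′ end, let-7c-5p differs from let-7a-5p by A19G, let-7e-5p by U9G and let-7f-5p by G12A, a single base each. Let-7b-5p carries A17G and A19G, let-7d-5p U1A and U16C, let-7g-5p G12U and U18C, and miR-98-5p G11A and A19U. Let-7i-5p is the most distant from let-7a-5p, with G12U, A17G, U18C and A19U, and is reached from let-7g-5p by A17G and A19U.

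Each member was read by 2 probes, DNA oligos complementary to it, whose match starts between base 1 and base 5 of the guide and runs to its last base. The probe sequences are shown because the probes of different members were nearly alike. Capitals mark the bases that differ from the let-7a-5p probe of 19 bases.
let-7a-5p probe: aactatacaacctactacc
let-7b-5p probe: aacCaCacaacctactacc
let-7c-5p probe: aacCatacaacctactacc
let-7d-5p probe: aactatGcaacctactacc
let-7e-5p probe: aactatacaacctCctacc

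In the probes of 21 bases, capitals mark the bases that differ from the let-7f-5p probe.
let-7f-5p probe: aactatacaatctactacctc
let-7g-5p probe: aactGtacaaActactacctc
let-7i-5p probe: aacAGCacaaActactacctc
miR-98-5p probe: aacAatacaaCTtactacctc

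Of the 18 probes, 12 were a single mismatch away from another member and 6, those of let-7g-5p, let-7i-5p and miR-98-5p, were 2 mismatches away from the nearest. A probe can take up some of a closely related guide, and how far this happened was not tested. Levels of different members are therefore not compared as amounts here, and each member is followed across arrays. The values relative to the family mean and the correlations between members, given below, carry the same limit.

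Spots were read by the scanner software as background-subtracted intensity, each array was scaled to the same 75th percentile of the probes detected on all arrays, and the 2 probes of a member were averaged. A probe was called detected on an array where at least 0.5 of its spots were well above background. Between 268 and 294 miRNAs were detected on the control arrays, and 313 and 300 on the IL-6 arrays, and the scaling percentile ran from 248 to 440 intensity units. In all, 299 miRNAs were detected on every array of a group and were tested with limma, and no spot was saturated. All 6 arrays lay on 1 slide, with every control in its first row and both IL-6 arrays in its second, so slide row and treatment cannot be told apart. Control 3 and IL-6 1 shared slide column 3, and control 4 and IL-6 2 shared slide column 4, which gives a difference within each column. The fat cell miRNAs listed for the check of cell type (miR-143-3p, miR-103-3p, miR-107-3p, miR-378a-3p, miR-30a-5p) were detected on all 6 arrays, 5 of 5, with a summed intensity of 4739 to 5420 in controls and 4507 to 4600 with IL-6. These sums did not overlap. Taken singly, miR-143-3p, miR-378a-3p and miR-30a-5p were lower on both IL-6 arrays than on any control, as were 21.7% of tested miRNAs. The groups overlapped for miR-103-3p and miR-107-3p. The part of these differences in the results below was not tested. The 3 mesenchymal miRNAs (miR-199a-3p, miR-214-3p, miR-145a-5p) were also detected on all arrays, with sums of 3179 to 3926 in controls and 3346 to 3828 with IL-6. Taken singly, miR-145a-5p was also lower on both IL-6 arrays (152 and 150) than on any control (165 to 188). For miR-199a-3p and miR-214-3p the groups overlapped. The part of the miR-145a-5p difference in the results below was not tested either. Of the 14 muscle, blood, neural, liver and epithelial miRNAs listed, 14 were detected on no array, with a highest intensity of 2.38.

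None of the 9 let-7 guides passed the threshold of an adjusted p below 0.05 (limma, Benjamini-Hochberg over 299 miRNAs), where 0.334% of all tested miRNAs did. That share is a single miRNA, miR-5117-5p, named here after its values were seen. Its control mean of 2.74 on the log2 scale lay close to 2.64, the floor to which lower values were set. None of the 9 reached an unadjusted p below 0.05 either, against 22.7% of all tested miRNAs. Of the members, 6 had a higher mean and 3 a lower mean with IL-6, with a median log2 difference of 0.021 beside -0.016 over all tested miRNAs. The groups did not overlap for 1 of the 9, let-7i-5p, which was higher on both IL-6 arrays than on any control, a pattern that 13.0% of tested miRNAs had in that direction and 34.8% in either direction. All 18 probes of the family were detected on all 6 arrays, so no member was lost to a filter on low values.

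The largest difference of the family belonged to let-7i-5p, which comes from a hairpin of its own at chr10:122985640-122985724 on the minus strand of GRCm38.p6, in no other annotated gene of the RefSeq table. Its scaled intensity was 1288, 1399, 1399 and 1198 on controls 1 to 4 and 1617 and 1412 on IL-6 1 and 2. Both IL-6 arrays were above the controls, but IL-6 2 exceeded the highest control by 0.013 on the log2 scale, well inside the spread between arrays. The control mean was 1321 ± 97.2 (SD, n = 4) and the IL-6 mean 1514 ± 145 (SD, n = 2), which makes a log2 difference of 0.20 (SE 0.095, 1.15-fold, 95% interval 0.975 to 1.35). The difference did not pass the test (limma, unadjusted p = 0.0844, adjusted p = 0.265), and the adjusted p ran from 0.207 to 0.715 over 19 alternative settings. It was 0.21 within slide column 3 and 0.24 within column 4. The unadjusted p was 0.0310 with the slide column as a block (limma, adjusted p = 0.238). In that fit 50 of the 299 tested miRNAs had an unadjusted p below 0.05. Controls 1 and 2 have no IL-6 array in their columns, so that fit compares the groups only within columns 3 and 4. Without IL-6 1 the difference was 0.098 and without IL-6 2 it was 0.29, so the size rested on which IL-6 array was used. The separation of the groups held in 5 of 8 other ways of computing the values and was lost with scaling over all mouse probes, with no scaling and with quantile normalization.

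**Figure D1:**
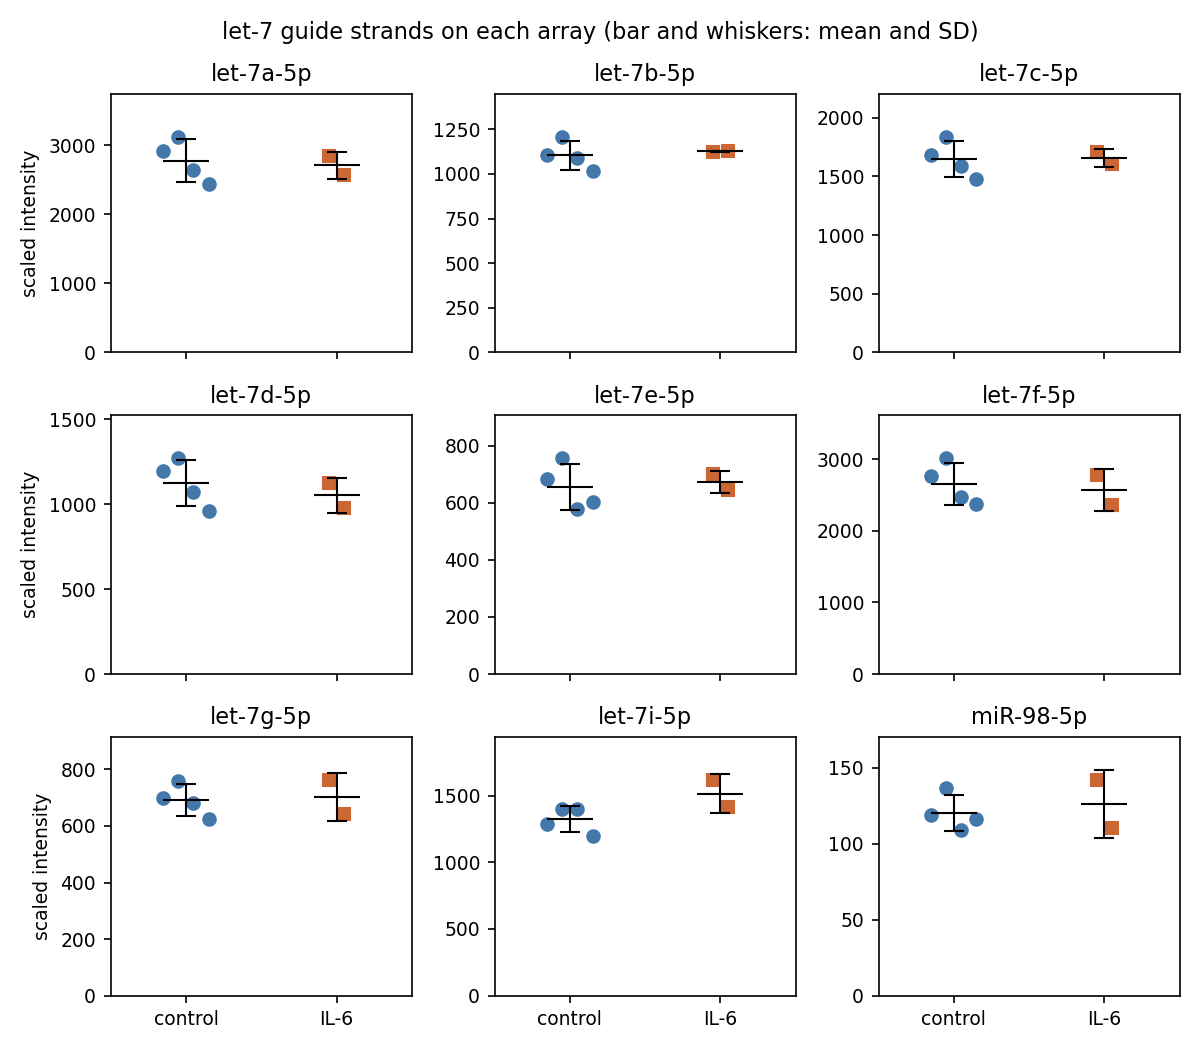
Scaled intensity (y axis, from 0, own scale in each panel) of the 9 let-7 guide strands on the 4 control arrays (circles) and the 2 IL-6 arrays (squares); the bar and whiskers are the mean and SD of a group. Only in the let-7i-5p panel do both IL-6 arrays lie above all controls, at 1617 and 1412 against a highest control of 1399, while IL-6 falls within or across the control range in the other 8 panels.

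Let-7g-5p is the member nearest to let-7i-5p in sequence and is encoded in the Wdr82 gene at chr9:106178840-106178927, plus strand. Its scaled intensity was 700, 760, 680 and 624 on controls 1 to 4 and 763 and 641 on IL-6 1 and 2. IL-6 1 was just above the highest control and IL-6 2 was below 3 of the 4 controls. The log2 difference was 0.021 (SE 0.11, 95% interval -0.24 to 0.28, limma adjusted p = 0.944), and 0.17 and 0.039 within columns 3 and 4.

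The hairpins of let-7a-1, let-7f-1 and let-7d lie together on the minus strand of chromosome 13 (chr13:48538179-48538272, chr13:48537829-48537917 and chr13:48536012-48536114), and are known to be made from one transcript. Let-7a-5p, which is also made from let-7a-2 at chr9:41536716-41536811 in the lncRNA gene Mir100hg, measured 2920, 3123, 2637 and 2431 on controls 1 to 4 and 2848 and 2572 on IL-6 1 and 2. Let-7f-5p, also made from let-7f-2, measured 2758, 3011, 2467 and 2373 on the controls and 2773 and 2357 with IL-6. Let-7d-5p, the member with U1A next to the seed, measured 1197, 1271, 1075 and 960 on the controls and 1123 and 981 with IL-6. In all 3, controls 1 and 2 were high and controls 3 and 4 low. The groups overlapped, with IL-6 1 near or below control 1 and IL-6 2 close to the low pair. These 3 were the members whose mean was lower with IL-6, by log2 differences of -0.031 for let-7a-5p (SE 0.12), -0.047 for let-7f-5p (SE 0.12) and -0.093 for let-7d-5p (SE 0.13). None passed the test (limma adjusted p = 0.916, 0.867 and 0.725). The sign did not hold within slide columns, where let-7a-5p was higher with IL-6 by 0.11 and 0.081 and let-7d-5p by 0.063 and 0.031, and let-7f-5p differed by 0.17 and -0.0097.

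Let-7f-2 and Mir98 lie together in the protein-coding gene Huwe1 (chrX:151912346-151912428 and chrX:151913214-151913321, plus strand). miR-98-5p measured 119, 137, 109 and 116 on controls 1 to 4 and 142 and 110 on IL-6 1 and 2. The IL-6 arrays stood at the 2 ends of the range of all 6 arrays, IL-6 1 the highest of them and IL-6 2 next to the lowest. The log2 difference was 0.065 (SE 0.14, 95% interval -0.27 to 0.40, limma adjusted p = 0.836), and it was 0.39 within column 3 and -0.075 within column 4.

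Let-7b and let-7c-2 lie on the plus strand of chromosome 15 in the lncRNA gene Lncppara (chr15:85707319-85707403 and chr15:85706603-85706697). Let-7b-5p measured 1107, 1209, 1089 and 1014 on controls 1 to 4 and 1125 and 1128 on IL-6 1 and 2, so the IL-6 arrays agreed closely and sat between the controls. Its log2 difference was 0.031 (SE 0.079, 95% interval -0.16 to 0.23, limma adjusted p = 0.867), the narrowest interval of the family. Let-7c-5p, also made from let-7c-1 at chr16:77599657-77599750, measured 1683, 1840, 1586 and 1479 on the controls and 1709 and 1605 with IL-6, again inside the control range. Its log2 difference was 0.013 (SE 0.097, 95% interval -0.23 to 0.25, limma adjusted p = 0.961). Within columns 3 and 4 the differences were 0.047 and 0.15 for let-7b-5p and 0.11 and 0.12 for let-7c-5p.

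Let-7e-5p is encoded in the gene Spaca6 at chr17:17830352-17830444, plus strand, beside miR-99b and miR-125a. It measured 683, 756, 577 and 603 on controls 1 to 4 and 700 and 644 on IL-6 1 and 2. Both IL-6 arrays lay between the low pair of controls, 3 and 4, and control 2. The log2 difference was 0.045 (SE 0.12, 95% interval -0.25 to 0.34, limma adjusted p = 0.871), and 0.28 and 0.095 within columns 3 and 4.

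**Figure D2:**
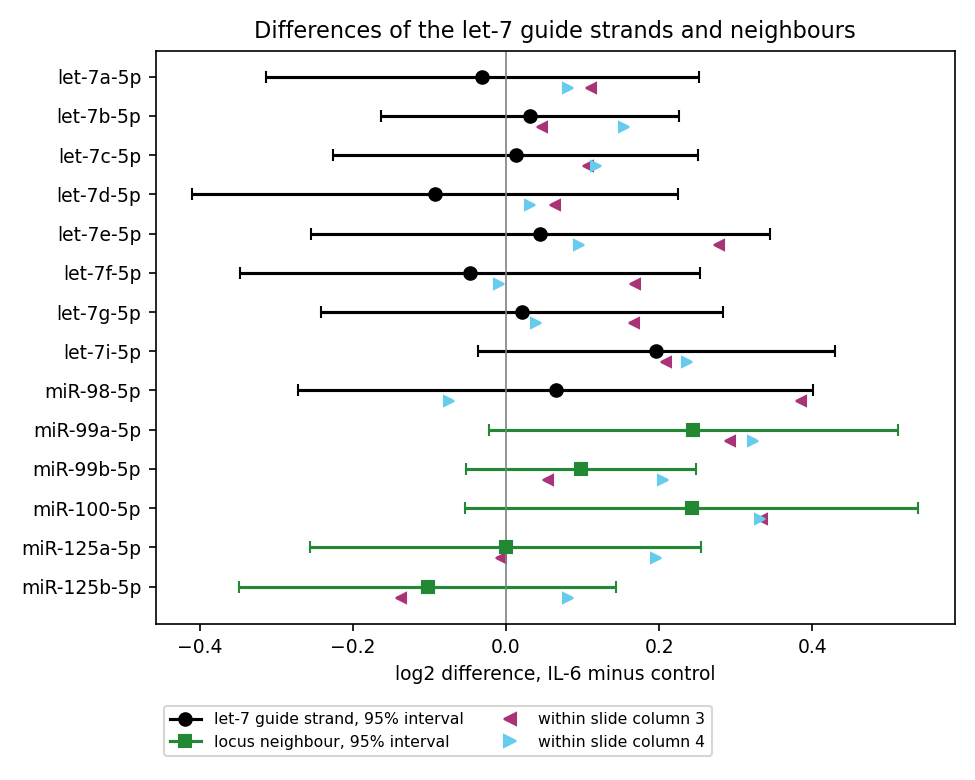
Log2 difference, IL-6 minus control, for the 9 let-7 guides (black circles) and the 5 miRNAs that share a transcript with a let-7 hairpin (green squares), with 95% intervals from limma; triangles give the difference within slide columns 3 and 4, 1 array per group each. Every interval crosses 0, and the point of let-7i-5p at 0.20 is the farthest to the right among the guides.

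The intervals give the range of differences that the values of these arrays allow. The widest among the members was that of miR-98-5p, from -0.27 to 0.40, and the lowest bound was that of let-7d-5p at -0.41. Each interval holds 0 as well as differences up to its bounds, and the 4 and 2 arrays do not decide between them. A p that missed the threshold therefore does not show that a member was the same in both groups.

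The members shifted together from array to array, within the controls as well as between the groups. Control 2 was the highest of the 4 controls for 9 of 9 members, and control 4 was the lowest for 7 of 9 and control 3 for the other 2, let-7e-5p and miR-98-5p. The mean of the 9 log2 values on an array differed from its control mean by 0.036, 0.16, -0.060 and -0.14 on controls 1 to 4 and by 0.11 and -0.066 on IL-6 1 and 2. IL-6 1 was above the control mean for 9 of 9 members and IL-6 2 below it for 7 of 9, with let-7b-5p and let-7i-5p above. Control 2 exceeded control 4 by 0.31 in the family mean (1.24-fold), while IL-6 exceeded control by 0.022. The control SD of the family mean was 0.13. Within slide columns the family mean was 0.17 higher with IL-6 in column 3 and 0.074 in column 4, so the difference seen depends on which controls it is set against. The median of all 299 tested miRNAs stayed within -0.029 to 0.022 of its control mean on every array. Among the members, the control SD of the log2 values ran from 0.10 to 0.18 with a median of 0.14, beside 0.13 over all tested miRNAs.

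**Figure D3:**
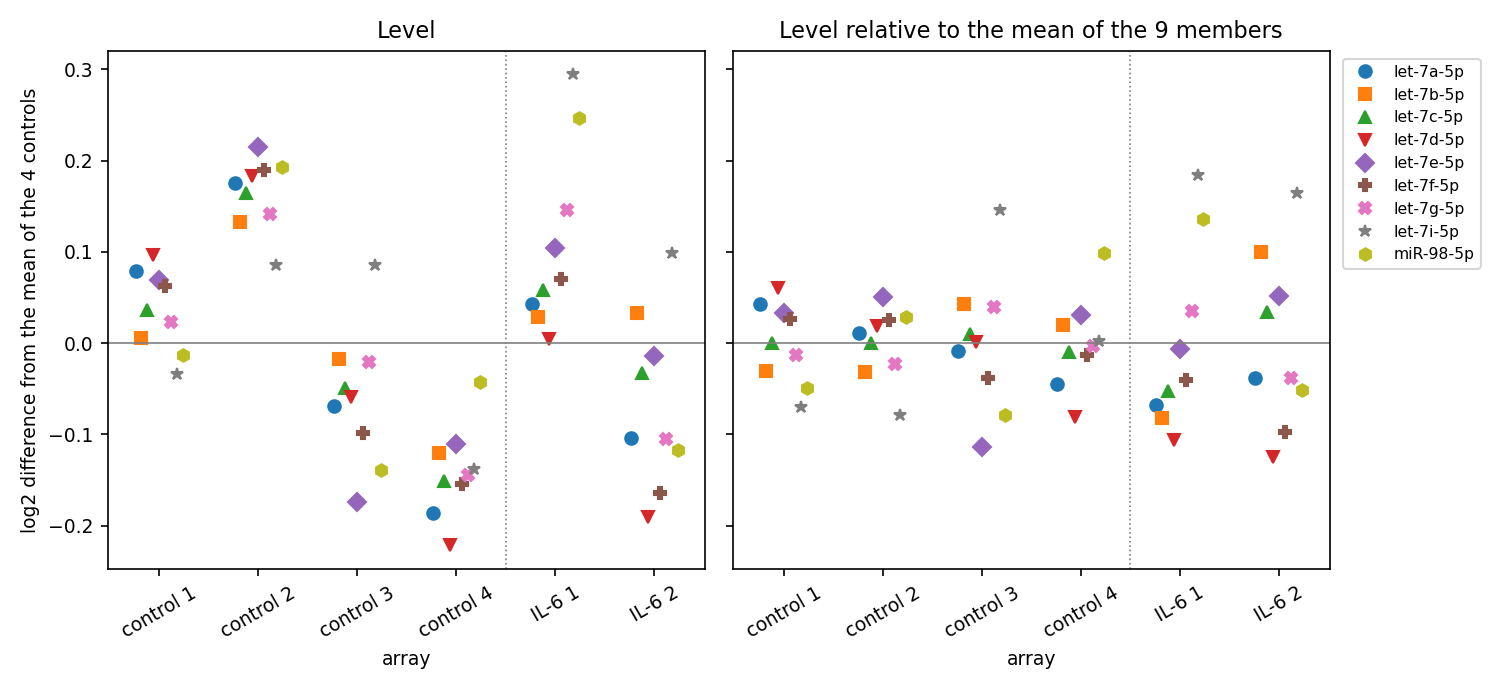
Log2 difference of each let-7 guide from its own mean over the 4 controls (y axis), by array (x axis; the dotted line divides control from IL-6), as the level (left) and relative to the mean of the 9 members on the same array (right). On the left the members shift together. Among the controls they are highest on control 2 and lowest on control 4 for 7 of 9, while let-7e-5p and miR-98-5p are lowest on control 3. On the right let-7i-5p stands at 0.18 and 0.16 on the IL-6 arrays and at 0.15 on control 3.

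Across the 6 arrays, Pearson's r between a member and the mean of the other 8 ran from 0.49 for let-7i-5p to 0.96 for let-7c-5p. Over the 36 pairs of members the median r was 0.80, from 0.29 to 0.98. These values describe 6 arrays that share a slide and a scaling, and for the closest members similar probes. Outside the family and its neighbours, the tested miRNAs most like the family mean were miR-10a-5p (r = 0.99), miR-221-3p (r = 0.97) and miR-224-5p (r = 0.85). The median r with the family mean over 283 other tested miRNAs was -0.22. None of these 3 passed the test between IL-6 and control, with log2 differences of 0.049, 0.011 and 0.12 (limma adjusted p = 0.901, 0.961 and 0.639).

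Because the family shifted together, each member was also compared relative to the mean of the 9 on the same array, a measure that the scaling of the array does not touch. Let-7i-5p relative to the family differed from its control mean by -0.070, -0.079, 0.15 and 0.0029 on controls 1 to 4 and by 0.18 and 0.16 on IL-6 1 and 2. Both IL-6 arrays were above all controls, with control 3 close below them. The difference was 0.17 (two-sided exact permutation test over 15 splits of the arrays, p = 0.133, and 0.400 after adjustment over the 9 members), where 0.0667 is the smallest p that the design allows. It was 0.038 within column 3 and 0.16 within column 4.

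Let-7d-5p relative to the family stood at 0.060, 0.019, 0.0015 and -0.081 on controls 1 to 4 and at -0.11 and -0.12 on IL-6 1 and 2, below every control. Let-7f-5p stood at 0.027, 0.025, -0.038 and -0.013 on the controls and at -0.040 and -0.098 with IL-6, also below every control, by a narrow margin on IL-6 1. The differences were -0.12 for let-7d-5p and -0.069 for let-7f-5p, each with an exact permutation p of 0.133 and an adjusted value of 0.400. Without IL-6 2 the difference of let-7f-5p was -0.040. For let-7a-5p the difference was -0.053 (exact permutation p = 0.2, adjusted 0.45), and the p-values of the other 5 ran from 0.6 upward. With 4 and 2 arrays no member could pass an adjusted threshold of 0.05. The values sum to 0 over the family on each array, so a member that lies high lowers the others. The shares of tested miRNAs without overlap given above are for levels and do not apply to values relative to the family.

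The 2 probes of a member gave differences of the same sign for 9 of 9 members. The gap between the 2 probes' log2 differences was largest for miR-98-5p at 0.067 and had a median of 0.016, beside 0.036 over the 238 miRNAs with several tested probes, of which 24 had probes of opposite sign. For let-7i-5p the probes gave 0.19 and 0.20. In a fit of all 571 detected probes, 0 of the family's 18 passed an adjusted p below 0.05 (limma, adjusted p from 0.291 to 1.0) and 0 had an unadjusted p below 0.05, beside 1.05% and 22.2% of all probes. Each probe was averaged from 17 to 20 spots, whose coefficient of variation within an array ran from 3.43% to 8.98%.

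**Figure D4:**
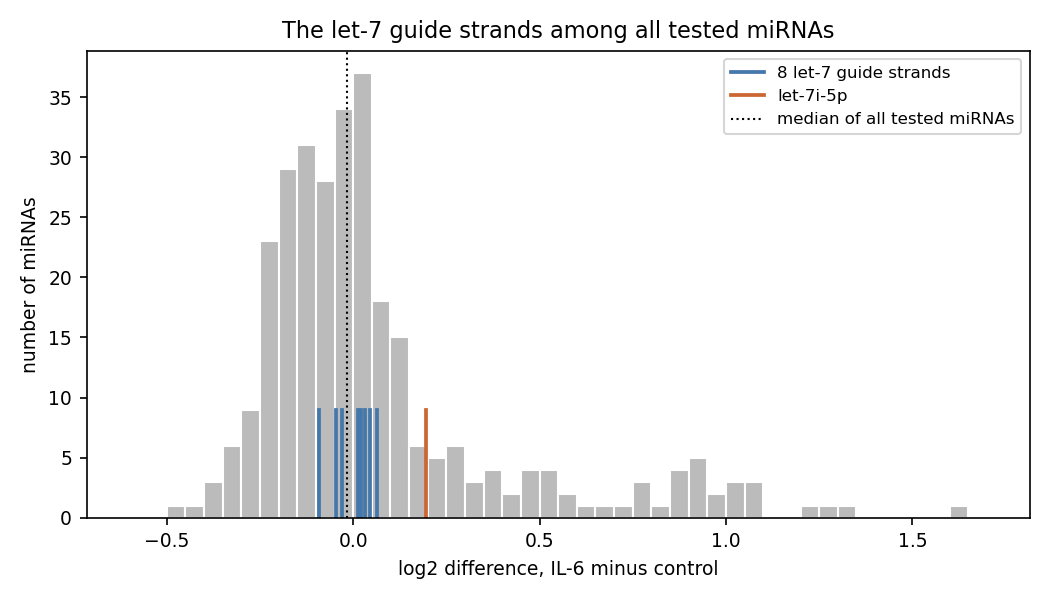
Histogram of the log2 difference, IL-6 minus control, of the 299 tested miRNAs (bars, number per bin of 0.05), with the let-7 guides as vertical marks and the median of all as a dotted line. The other 8 guides lie between -0.093 and 0.065, around the median of -0.016, and let-7i-5p lies at 0.20, short of the tail that reaches 1.64.

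Since values under the floor were set to it, the family was also read beside the 109 tested miRNAs whose control mean was at or above that of miR-98-5p. Their median log2 difference was -0.064, and 21 of them had an unadjusted p below 0.05 (limma), 3 higher and 18 lower, with 0 past the adjusted threshold. Among the 9 members, 0 had an unadjusted p below 0.05. Of the 109, 6 were higher on both IL-6 arrays than on any control, let-7i-5p among them, and 25 were lower on both.

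The passenger strands are the other arm of the same hairpins, which is mostly discarded once the guide is loaded. Of 12 let-7 passenger strands listed, 11 were on the array by name, and let-7c-2-3p was not. It has the same mature sequence as let-7a-1-3p, so the let-7a-1-3p probes cannot tell these strands apart. Of the 11, 8 were not well above background on any array, and let-7d-3p and let-7e-3p were detected on 1 and 2 arrays. Only let-7a-1-3p was detected on all 6, through 1 of its probes at a scaled intensity of at most 20.7 per array. On control 4 this probe was set to the floor for single probes, 16.2. Its mean over probes lay at or below the floor of 6.25 on all 6 arrays, so no fold is given. No passenger strand exceeded a mean intensity over its probes of 6.47 on any array.

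Of the 1679 mature mouse sequences in the RefSeq table, 11 carry the seed GAGGUAG, the 9 members and 2 others on the array. These are let-7k, with 19 bases, and miR-1961, with 17 bases, shown because they carry the family's seed in shorter sequences; capitals mark the seed.
let-7k: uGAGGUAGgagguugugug
miR-1961: uGAGGUAGuaguuagaa

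The let-7k probes have 1 mismatch to let-7b-5p. Neither let-7k nor miR-1961 was well above background on any array. Let-7k measured between 3.46 and 6.00, and every value of miR-1961 was below 0 after background subtraction.

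The miRNAs that share a primary transcript with a let-7 hairpin belong to the miR-99 and miR-125 families, which have seeds of their own. They are miR-100-5p and miR-125b-5p with let-7a-2, miR-99a-5p and again miR-125b-5p with let-7c-1, and miR-99b-5p and miR-125a-5p with let-7e. None of the 5 passed the threshold, and their median log2 difference was 0.098. miR-99a-5p measured 381, 401, 391 and 328 on controls 1 to 4 and 479 and 410 on IL-6 1 and 2, above all controls on both. Its log2 difference was 0.24 (SE 0.11, limma adjusted p = 0.242), with 0.29 and 0.32 within columns 3 and 4. miR-100-5p measured 169, 182, 168 and 143 on the controls and 211 and 180 with IL-6, so IL-6 2 was below control 2. Its log2 difference was 0.24 (SE 0.12, limma adjusted p = 0.267), with 0.33 in both columns. Without IL-6 1 the differences of miR-99a-5p and miR-100-5p were 0.13 and 0.12, without IL-6 2 both were 0.36.

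miR-99b-5p measured 304, 296, 293 and 281 on controls 1 to 4 and 305 and 324 on IL-6 1 and 2, where IL-6 1 was barely above control 1. Its log2 difference was 0.098 (SE 0.061, limma adjusted p = 0.372), and 0.055 without IL-6 2. For miR-125a-5p the log2 difference was -0.00051 (SE 0.10, limma adjusted p = 1.0), and for miR-125b-5p it was -0.10 (SE 0.10, limma adjusted p = 0.600). The latter was -0.17 without control 4 and -0.061 without control 1. The separation of the groups for miR-99a-5p and miR-99b-5p held in 5 and 4 of the 8 other ways of computing the values. Pearson's r with the let-7 family mean over the 6 arrays ran from 0.20 for miR-99b-5p to 0.74 for miR-100-5p. The let-7 guides of the same transcripts, let-7a-5p, let-7c-5p and let-7e-5p, had differences of -0.031, 0.013 and 0.045, and whether a neighbour differed from its let-7 guide was not tested.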

How the data were processed

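miRNA was measured in 6 samples of 3T3-L1 adipocytes, 4 control and 2 IL-6, grouped by their titles, on 1-colour Agilent arrays. The scanner software was Agilent Feature Extraction 10.10.1.1, per the submitters' processing notes. Its deposited intensity values are background-subtracted, per the file headers, so dim spots fall below 0. Spot flags deposited by the authors, yes-or-no marks with no unit, tell uneven and outlying spots and those well above background. The authors' series table holds linear intensity, neither centred nor on a log scale, equal to the scanner's total signal per probe (largest difference 0), with column medians of 0.0937, 0.104, 0.0777, 0.0781, 0.0727 and 0.117. It served as an alternative.

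Of 49880 mouse spots per array (3105 probes, 1247 miRNAs; 2164 control spots left out), 1863 to 2180 flagged ones were dropped and the rest averaged per probe. Each array was scaled so that the 75th percentile of the 502 probes found on all 6 arrays equalled its mean over arrays, 357. Probes were averaged linearly per miRNA, values under 6.25 (16.2 for single probes), the highest of the arrays' lowest detected signals, were set to that floor, and log2 was taken. limma 3.58.1 in R 4.3.3 (lmFit, eBayes with a mean trend) was run on all 299 miRNAs detected on all arrays of a group, as a two-sided test whose p-values were adjusted by Benjamini-Hochberg, with 0.05 as the threshold. Values relative to the family mean were compared by an exact permutation test over 15 splits. The fit was also run on simulated data in which each miRNA varied independently, unlike the shared shifts between arrays described above. No statement here rests on that run. Hairpin positions and sequences come from RefSeq tables of GRCm38.p6, and the arrays' own coordinates, of build mm9, were not used.

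The text names all members, every tested passenger strand, locus neighbour and other miRNA with the let-7 seed, and the 3 other tested miRNAs most correlated with the family mean. The members, lists and tests were chosen with earlier results of these data known. Alternatives changed the background correction, scaling, detection filter, flags, probe summary, floor, mean trend and block, and left out each array in turn.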

Additional observations from a re-analysis of the deposited data

Results flagged for a closer look

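Among the members, 1 value stood apart within the 4 controls. Let-7e-5p relative to the mean of the family stood at 0.033, 0.050, -0.11 and 0.031 on controls 1 to 4, so that control 3 was low, and at -0.0070 and 0.052 on IL-6 1 and 2. The gap of control 3 to the nearest control was 0.88 of the range of the 4, above Dixon's critical value, a limit that chance passes now and then in groups of this size when 9 members are examined on 2 scales. The level of let-7e-5p itself, 577 on control 3 against 603 on control 4, did not stand apart in this way.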

How the results depend on the processing

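No let-7 guide passed the adjusted threshold in any of the 19 alternatives (0 guides, lowest adjusted p = 0.207), and no let-7 probe in the 10 of them fitted by probe. Of 171 values of the 9 guides under the alternatives, 136 kept their sign and 35 turned it, all of the latter in members whose difference lay within 0.1 of 0; let-7i-5p stayed positive throughout, from 0.085 to 0.49. A change of scaling shifted all tested miRNAs by more than 0.1 in the median, to -0.13 with scaling over all mouse probes and to 0.27 without scaling. Relative to these, the family median stood at 0.037 and 0.047, as against 0.037 in the settings reported.

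With scaling over all mouse probes the log2 differences were -0.080 for let-7b-5p, -0.099 for let-7c-5p, -0.067 for let-7e-5p, -0.090 for let-7g-5p, -0.047 for miR-98-5p and -0.013 for miR-99b-5p. Without scaling the family median was 0.31, and let-7a-5p was at 0.26, let-7d-5p at 0.20, let-7f-5p at 0.25, miR-125a-5p at 0.29 and miR-125b-5p at 0.19. With normexp background, let-7a-5p was at 0.0075, miR-98-5p at -0.011 and miR-125a-5p at 0.0050, and relative to the family let-7c-5p was at 0.0068, let-7g-5p at 9.99e-05 and miR-98-5p at -0.049. Quantile normalization gave -0.0042 for let-7b-5p, -0.090 for let-7c-5p and 0.026 for miR-125a-5p, the series table gave -0.0069 for let-7c-5p, and for miR-125a-5p the brightest probe gave 0.012 and keeping flagged spots 0.014. With the slide column as a block, let-7a-5p was at 0.096, let-7d-5p at 0.047, let-7f-5p at 0.079 and miR-125a-5p at 0.095. The cause of these turns was not tested.

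The groups share the numbers 1 and 2 only, and nothing says that these pair samples. The deviations of same-numbered arrays correlated at 0.058 and -0.34 over the 299 miRNAs. Because there are only 2 IL-6 arrays, their deviations are mirror images, so these values cannot decide whether the numbers pair samples. The arrays that share a slide column correlated at 0.41 (control 3 and IL-6 1) and 0.51 (control 4 and IL-6 2), and the same limit holds for these values. Control 2, which shares no column with an IL-6 array, correlated at 0.34 with IL-6 1. The cause of these correlations was not tested. With the replicate block, in which controls 3 and 4 have no IL-6 array to be set against, 0 of all miRNAs passed (50 at an unadjusted p below 0.05), and let-7b-5p was at -0.038, let-7c-5p at -0.088, let-7e-5p at -0.097, let-7g-5p at -0.062 and miR-98-5p at -0.026. The block changed no call of a let-7 guide.

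The count of all miRNAs past the threshold, 1 as reported, was 0 with normexp (30 at an unadjusted p below 0.05) and with the slide column block (50), 2 with scaling over all mouse probes, with the brightest probe and without a detection filter, 4 with probes averaged on the log2 scale, 7 with a lower floor (0.5 of it) and 34 without scaling. Leaving out 1 array gave 1 to 31 (31 without control 4, 5 without IL-6 1 and 4 without IL-6 2). Leaving out 1 array moved the guides over -0.10 to 0.043 for let-7a-5p, -0.0091 to 0.075 for let-7b-5p, -0.038 to 0.067 for let-7c-5p, -0.19 to 0.0050 for let-7d-5p, -0.015 to 0.12 for let-7e-5p, -0.16 to 0.070 for let-7f-5p, -0.10 to 0.15 for let-7g-5p and -0.12 to 0.25 for miR-98-5p, and the neighbours over -0.073 to 0.039 for miR-125a-5p, -0.17 to -0.061 for miR-125b-5p, 0.13 to 0.36 for miR-99a-5p, 0.12 to 0.36 for miR-100-5p and 0.055 to 0.14 for miR-99b-5p. Relative to the family the ranges were -0.082 to 0.099 for let-7b-5p, -0.053 to 0.034 for let-7c-5p, -0.016 to 0.052 for let-7e-5p, -0.098 to -0.040 for let-7f-5p, -0.038 to 0.036 for let-7g-5p and -0.051 to 0.14 for miR-98-5p. The family median ran from -0.10 without IL-6 1 to 0.070 without IL-6 2. With 1 IL-6 array left, its spread is taken to be that of the controls.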
